A study of Mus musculus with 11 samples.

Results

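The genes described here were 10 regulators and markers of cell cycle arrest and senescence, chosen by their symbols among the 28692 genes of the matrices: the cyclin-dependent kinase (CDK) inhibitors Cdkn1a, Cdkn1b, Cdkn2a and Cdkn2b, the D-type cyclins Ccnd1 and Ccnd2, Trp53 and its regulator Mdm2, and the stress and lysosomal markers Gdf15 and Glb1. They were followed in male C57Bl/6 mice, 10 weeks old when operated on, 28 days after injury of the left kidney. Unilateral ischemia/reperfusion (UIR, 3 libraries) was a 30 minute clamp of the renal pedicle at 37 °C, unilateral ureter obstruction (UUO, 3 libraries) was an irreversible ligation of the ureter, and unoperated mice, matched for strain, sex and age, gave 5 control libraries, named Ctrl, N1, N2, AN1 and AN2. No allele or transgene was used, the controls were not sham operated, and each library came from a different mouse. Kidneys were dissociated with a cold-active protease and sequenced as droplet-based 3′ single-cell RNA-seq, in which each counted molecule carries a unique molecular identifier (UMI).

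After filtering, 40573 cells remained, 10260 of control, 16942 of UIR and 13371 of UUO kidneys. Levels are given in CPM, the UMIs of a gene per 1000000 UMIs summed over the cells of a class in a library, and classes with at least 20 cells in a library gave a pool. Tests compared pools between groups with edgeR's quasi-likelihood test, and a call means a Benjamini-Hochberg adjusted p under 0.05 over all genes tested in that class. Library totals ranged from 49503312 to 117043590 UMIs. Cells were kept below 30% mitochondrial UMIs, and this limit removed 56.9 to 79.0% of called control barcodes, 23.8 to 37.4% of those of UIR and 3.15 to 8.0% of those of UUO. The labels name the controls in 3 sets (Ctrl, N and AN) without saying what sets them apart, and give no such sets for the injured libraries, so a preparation batch and injury cannot be told apart. Marker genes separated proximal tubule (PT), loop of Henle, distal tubule, principal, intercalated, podocyte, endothelial, stromal and immune classes, and a class with markers of both distal tubule and collecting duct principal cells (DT-CDP intermediate). Clusters marked by Cp, Vcam1, Slc14a2 and Cryab, the study's markers of failed repair tubular epithelial cells (frTECs), were thin limb-like cells (384 cells, with Bst1, Cryab and Aqp1 among the leading genes), failed-repair PT-like cells (515 cells, with Ubd, C3 and Vcam1) and a cluster led by Tnc and Cp (345 cells). Fewer transcripts per cell and fewer expressing cells cannot be told apart from a pooled level alone.

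Cells leave the cycle through proteins that block the CDKs. p21, the product of Cdkn1a and a textbook target of p53, and p27, the product of Cdkn1b, bind cyclin-CDK complexes, while p16 and p15, the products of Cdkn2a and Cdkn2b, block the kinases CDK4 and CDK6 that D cyclins activate. Mdm2 marks p53 for degradation and is itself switched on by p53, Gdf15 encodes a secreted stress cytokine, and Glb1 encodes the lysosomal enzyme behind senescence-associated β-galactosidase staining. Lasting expression of such genes in the tubule is widely discussed in work on the passage from acute injury to chronic kidney disease.

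The genes moved mainly in 4 classes, the loop of Henle, DT-CDP intermediate, principal and intercalated cells, called the 4 distal classes here. Cdkn1a and Trp53 were higher and Ccnd1 lower in all of them in both models, and Ccnd2 was higher in the 3 where it was tested, all but intercalated cells. The distal tubule class is not among them: in UIR 0 of its 4 tested genes were called (Ccnd1 log2 fold change -0.59, adjusted p = 0.309, and Mdm2 -0.99, adjusted p = 0.416), where 0.885% of all genes were. Cdkn1a, Ccnd2 and Trp53 were below the filter there, and UUO gave no pool. The class held 459 control, 124 UIR and 14 UUO cells, while cluster 33 of the DT-CDP intermediate class held 7, 384 and 187. Whether injured distal tubule cells were named DT-CDP intermediate was not tested, so the 0 calls cover the remaining cells only. Against control, 19 of 81 tested pairs of gene and class were higher and 8 were lower in UIR, where 6.18% of all pairs over all genes were called higher and 5.41% lower. In UUO, 17 of 82 pairs were higher and 15 lower, against 8.19% and 7.86% of all pairs. Between the models only 7 of 123 pairs differed, 4 higher and 3 lower in UUO, against 0.594% and 0.9% of all pairs. Both models were compared with the same 5 control libraries, so their calls are not independent of each other. Set by set, the N libraries alone as controls gave 20 of 68 and 20 of 71 calls in UIR and UUO (7.13% and 10.4% of all pairs), and the AN libraries alone 18 of 76 and 22 of 73 (6.1% and 10.7%). With cells kept below 15% mitochondrial UMIs fewer classes reached the test, and 10 of 44 and 12 of 37 pairs were called, against 5.43% and 10.8% of all pairs.

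Within classes the background differed widely. In the loop of Henle 6 of 9 tested genes were called in UIR and 7 of 9 in UUO, where 32.5% and 38.2% of all genes were called. In principal cells 4 of 9 and 8 of 9 were called, against 18.7% and 32.9%. DT-CDP intermediate cells had 5 of 9 in each model, against 24.1% and 31.9%, and intercalated cells 3 of 6 in each, against 14% and 24.9%. Thin limb-like cells had 5 of 10 in UIR and 3 of 10 in UUO, where only 7.44% and 6.08% of all genes were called. Outside these classes there were calls in PT for 1 of 8 in UIR and 0 of 8 in UUO (9.53% and 1.55% of all genes), in macrophages 2 of 8 and 4 of 8 (6.48% and 11.7%), and in endothelium 0 of 7 and 1 of 7 (2.1% and 13%). The remaining calls were Ccnd1 in UIR podocytes (1 of 4, against 1.28%) and Ccnd2 in UUO T and natural killer cells (1 of 7, against 2.17%). For the counts of 0 by edgeR, an unadjusted p under 0.05 gave 2 genes in UUO PT (Ccnd1 and Ccnd2, both also called by DESeq2) and, with 0 called by DESeq2, 2 in UIR endothelium (Ccnd2 and Trp53), 2 in UIR distal tubule (Ccnd1 and Mdm2) and 1 each in UIR T and natural killer cells (Ccnd2, 0 of 7), UUO podocytes (Mdm2, 0 of 4) and UUO Fibro 3 cells (Ccnd1, 0 of 5).

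**Figure D1:**
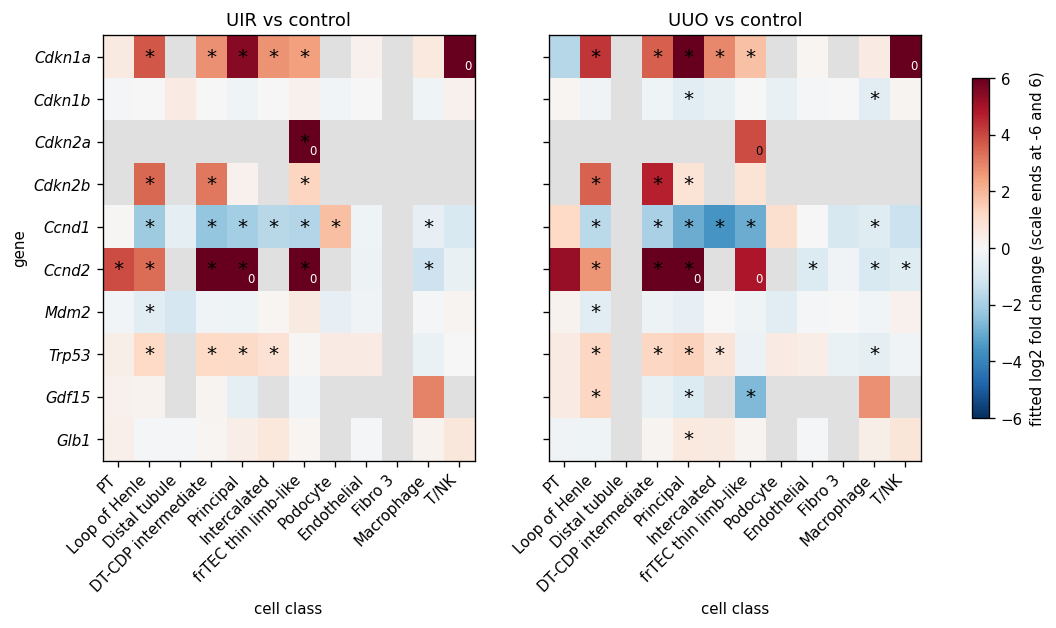
Fitted log2 fold change of the 10 genes (rows) in 12 cell classes (columns), in UIR against control on the left and in UUO against control on the right. Asterisks mark adjusted p under 0.05, grey marks pairs that were not tested, and a small 0 marks pairs without any UMI in the control pools, whose fitted value depends on the prior count and is no measure of size. The asterisks gather in the loop of Henle, DT-CDP intermediate, principal, intercalated and thin limb-like columns, with Cdkn1a red and Ccnd1 blue in all 5.

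Cdkn1a, which encodes p21, rose in 5 of the 9 classes where it was tested, the same 5 in UIR and in UUO: loop of Henle, DT-CDP intermediate, principal, intercalated and thin limb-like cells. The gene lies on chromosome 17 (GRCm38, 29090976 to 29100727, plus strand), and RefSeq gives it separate transcription starts. The 250 bases before each start are shown because p53 is the classical activator of the gene and its transcript, Trp53, was among those counted (the protein was not measured). Capitals mark a run of 20 bases that differs at 1 position from the p53 consensus (a pair of decamers without a spacer) before the upstream start, and GC boxes (GGGCGG, searched on both strands) before the downstream start.
Cdkn1a upstream start, chr17:29090729-29090978, plus strand: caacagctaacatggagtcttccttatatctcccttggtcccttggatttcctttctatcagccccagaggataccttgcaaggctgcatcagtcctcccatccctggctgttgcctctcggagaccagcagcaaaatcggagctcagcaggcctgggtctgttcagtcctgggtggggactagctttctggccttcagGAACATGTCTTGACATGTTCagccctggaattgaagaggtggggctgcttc
Cdkn1a downstream start, chr17:29093519-29093768, plus strand: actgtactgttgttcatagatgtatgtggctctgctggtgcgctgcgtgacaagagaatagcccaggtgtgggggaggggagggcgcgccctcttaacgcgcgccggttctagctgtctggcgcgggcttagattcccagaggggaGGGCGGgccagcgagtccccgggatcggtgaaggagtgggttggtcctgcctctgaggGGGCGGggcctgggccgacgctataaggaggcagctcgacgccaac
A run with at most 1 mismatch to the consensus was present in 25 of 32851 mouse promoters of this length (0.0761%), and an exact match in 3 (0.00913%), none of them a promoter of the genes described here. The tolerance of 1 mismatch was chosen after the letters were seen. GC boxes were present in 32.7% of promoters. A match is a run of letters and no measure of binding.

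In the loop of Henle, the thick ascending limb that dilutes the urine, Cdkn1a stood at 3.47, 27.8, 2.57, 0 and 27.4 CPM in control libraries Ctrl, N1, N2, AN1 and AN2. The UIR libraries held 127, 175 and 164 CPM and the UUO libraries 219, 246 and 229 CPM. Every injured library lay above every control library, and every UUO library above every UIR library. Mean levels were 12.3 ± 14.1 CPM for controls (SD, n = 5), 156 ± 25.3 for UIR (n = 3) and 231 ± 13.8 for UUO (n = 3), and the log2 fold changes were 3.72 (SE 0.34, edgeR adjusted p = 5.47e-09) and 4.28 (SE 0.33, adjusted p = 1.46e-10). The difference between the models, 0.57 on the log2 scale (SE 0.19), was not called (adjusted p = 0.113).

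Principal cells, the salt- and water-handling cells of the collecting duct, had little Cdkn1a without injury. Control libraries held 5.64, 3.01, 3.40, 1.42 and 0 CPM of Cdkn1a, UIR libraries 163, 100 and 119, and UUO libraries 208, 184 and 231. The groups did not overlap, and the log2 fold changes were 5.46 (SE 0.34, adjusted p = 1.51e-10) and 6.14 (SE 0.32, adjusted p = 3.68e-12). Here UUO stood above UIR by 0.68 on the log2 scale (SE 0.18, adjusted p = 0.0402), a call that was lost when any of N2, AN1, UIR1, UIR2, UUO, UUO1 or UUO2 was left out. It was also lost with free RNA subtracted (adjusted p = 0.0654), at a mitochondrial limit of 15% (0.34) and with pools of at least 50 cells (0.189), and Cdkn1a reached 40.5 to 64.5 CPM in the empty droplets of UUO and 16.4 to 25.9 CPM in those of UIR.

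Intercalated cells, which secrete acid or base, held 11.6, 10.1, 29.1, 15.7 and 13.2 CPM of Cdkn1a in controls, 96.3, 95.5 and 165 in UIR and 138, 170 and 121 in UUO. DT-CDP intermediate cells held 14.4, 2.33, 0, 6.09 and 15.9 CPM in controls, 54.8, 68.7 and 111 in UIR and 162, 169 and 99.3 in UUO. In both classes all injured libraries exceeded all controls. The log2 fold changes were 2.69 (SE 0.27) and 2.89 (SE 0.27) in intercalated cells and 2.74 (SE 0.37) and 3.59 (SE 0.36) in DT-CDP intermediate cells, with adjusted p of at most 6.02e-06.

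Thin limb-like cells had the highest Cdkn1a level of any class in both injured groups, 758, 560 and 572 CPM in UIR and 320 and 476 in the 2 UUO libraries with a pool. The 2 control pools, Ctrl and AN2, held 22.9 and 191 CPM. The injured libraries lay above both, with log2 fold changes of 2.46 (SE 0.39, adjusted p = 0.000215) and 1.77 (SE 0.42, adjusted p = 0.0104). The 2 control pools held 20 and 28 cells. The UUO value lost its call without Ctrl (log2 fold change 0.99) or UUO1 (1.49), each of which left 1 pool in its group. DESeq2 called neither value (adjusted p = 0.0525 in UIR and 0.381 in UUO). The estimated share of UMIs from free RNA was 25.1 to 46.9% in these control pools, 19.7 to 34.6% in UIR and 8.29 to 9.37% in UUO. With it subtracted the UIR call held, and the UUO log2 fold change was 1.66 and no longer called (adjusted p = 0.0721).

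**Figure D2:**
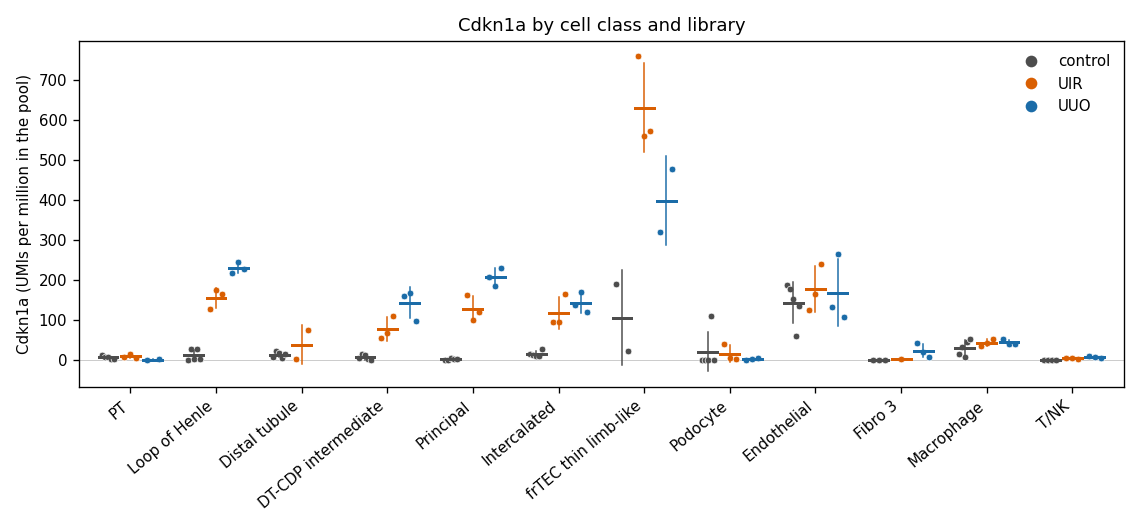
Cdkn1a in CPM (vertical axis) in 12 cell classes. Each point is 1 library with at least 20 cells of the class, horizontal bars are group means and vertical bars SDs. Control points lie at or below 29.1 CPM in the loop of Henle, DT-CDP intermediate, principal and intercalated classes, where UIR and UUO points lie above them, and endothelial points of all 3 groups lie in the same range.

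In PT, the segment that reabsorbs most of the filtrate, Cdkn1a was not called. It stood at 9.27, 4.50, 2.60, 12.5 and 7.19 CPM in controls, at 7.56, 15.4 and 6.0 in UIR and at 0 and 2.70 in the 2 UUO pools. The groups overlapped, and neither log2 fold change was called (0.56, SE 0.37, adjusted p = 0.385 in UIR, and -1.70, SE 2.07, adjusted p = 0.771 in UUO). The UUO pools held 22 and 53 PT cells and 27621 and 369699 UMIs. Endothelial cells had a high level in every group, 59.6 to 188 CPM for controls, 127 to 242 for UIR and 109 to 266 for UUO, and macrophages held 7.30 to 53, 35.4 to 53.3 and 39.6 to 52.7 CPM. Neither class was called, and their ranges overlapped between groups. T and natural killer cells held 0 CPM in all 4 control pools and at most 9.65 CPM in injured libraries.

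In the remaining classes Cdkn1a could not be tested against control, since control pools or counts were too few, and its levels are given as a description. Distal tubule cells held 17.3, 6.8, 15, 7.69 and 23.0 CPM in controls and 4.35 and 74.6 in the 2 UIR pools, on both sides of the controls. Podocytes held 0 CPM in 4 control libraries and 109.7 in the other, 40.8, 6.17 and 3.09 in UIR and 0 to 6.72 in UUO. Failed-repair PT-like cells held 134, 58.4 and 67.9 CPM of Cdkn1a in UIR and 124 in library UUO1, above the 6.0 to 15.4 CPM of the PT class in the same UIR libraries. The 14 control cells of that cluster held 66.9 CPM (10 UMIs in 3 cells, exact 95% Poisson interval 32.1 to 123, counting error only). All its UIR cells together held 61.7 CPM (interval 54.9 to 69.1), with a UMI in 119 of 425 cells. These intervals take UMIs as independent, which those of a few cells need not be. Failed-repair PT-like cells also held Ccnd1 at 157 to 206 CPM and Gdf15 at 63.7 to 235 CPM in UIR, so that Cdkn1a, Ccnd1 and Gdf15 were all present there. The Tnc and Cp cluster held 76.3 and 110 CPM of Cdkn1a in UIR and 70.7 and 121 in UUO. Its 11 control cells held 100.5 CPM (11 UMIs in 2 cells, interval 50.2 to 179.9). All its UIR cells together held 87.3 CPM (interval 77.4 to 98.1), with a UMI in 43 of 225 cells.

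Among stromal and immune classes, levels of Cdkn1a were spread widely. Fibro 2 cells, which carry the contractile genes Acta2 and Myh11, held 150, 103 and 141 CPM in UIR and 92.9, 172 and 29.7 in UUO, and Fibro 1 cells, which carry the collagen genes Col1a1 and Col3a1, held 6.55 to 19.2 CPM in UIR and 13.8, 14.0 and 114 in UUO. Neutrophils gave pools only in UUO, at 247, 235 and 295 CPM, and B cells there held 0 to 4.90 CPM. Ranked by mean, the order in UUO ran from thin limb-like cells (398 ± 111 CPM, n = 2) through neutrophils (259 ± 31.6, n = 3) and the loop of Henle (231 ± 13.8, n = 3) to PT (1.35 ± 1.91, n = 2). In UIR thin limb-like cells (630 ± 111 CPM, n = 3) were followed by endothelium (178 ± 58.4), and T and natural killer cells were lowest (4.97 ± 1.84). Thin limb-like cells did not overlap with the next class in either model, and all other neighbours in both orders overlapped.

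Whether the change differed between PT, loop of Henle, distal tubule, principal and intercalated cells was tested in 1 model with the library as a block. Cdkn1a was among 5 of 9 tested genes whose UIR change differed between these segments (adjusted p = 5.04e-07), where 32.1% of all genes passed the same test. Relative to the change in PT, its UIR change was 3.1 higher on the log2 scale in the loop of Henle, 5.0 higher in principal cells, 2.07 higher in intercalated cells and 0.39 higher in distal tubule. In UUO, without distal tubule pools, 4 of 9 genes passed, Cdkn1a among them (adjusted p = 8.16e-07), against 27.7% of all genes.

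The share of cells with at least 1 Cdkn1a UMI moved in the same way once each cell was thinned to 1000 UMIs. For loop of Henle cells it was 0.541% ± 1.21 in control (SD, n = 5), 12.4% ± 0.644 in UIR (n = 3) and 17.5% ± 1.56 in UUO (n = 3), and without thinning 1.46%, 52.3% and 67.7%. Thinning left out 22 control, 5 UIR and 1 UUO cells that were shallower. In T and natural killer cells, taken as a class with hardly any Cdkn1a, the thinned share was 0% in control, 0.472% in UIR and 1.18% in UUO. The UIR shares of DT-CDP intermediate cells, at 3.70 to 6.86%, met the control maximum of 3.70% (exact permutation p = 0.0714). An exact permutation test of the loop of Henle shares gave p = 0.0357 for each model, the smallest that 5 against 3 libraries allow, and over the 180 such tests run 36 had p under 0.05 and 0 passed Benjamini-Hochberg adjustment (0.179 for both).

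At the same fixed depth the other genes called in these classes divided. The thinned share of cells with a Ccnd1 UMI was lower in every injured library than in every control in loop of Henle, DT-CDP intermediate and principal cells, for example 40.8% ± 8.74 in control principal cells, 14.4% ± 5.61 in UIR and 3.77% ± 1.82 in UUO. For Trp53 the thinned shares were low and overlapped with control in 3 of the 4 distal classes. Loop of Henle cells had 3.01% ± 2.45 without injury, 4.02% ± 0.662 after UIR and 5.48% ± 1.0 after UUO (exact permutation p = 0.536 and 0.179), and intercalated cells 3.96% ± 2.76, 4.33% ± 1.10 and 3.51% ± 3.33, lowest in UUO. In DT-CDP intermediate cells alone, at 0% in control and means of 2.81 and 6.47%, the groups did not overlap. The Ccnd2 share was 0% in all control libraries of principal cells, 0.725% ± 1.26 in UIR (exact permutation p = 0.75) and 3.73% ± 1.24 in UUO (p = 0.0357), and in the loop of Henle 0% in control, 2.03% ± 0.775 in UIR (p = 0.0357) and 0.861% ± 0.855 in UUO (p = 0.214). The pooled Trp53 calls in the loop of Henle, principal and intercalated cells thus had no matching separation of thinned shares. Control pools of these classes held 33 to 67 cells, where a share of a few percent is a few cells. The missing separation therefore cannot decide whether the share of Trp53-positive cells changed. Without thinning, 10.9% of control loop of Henle cells had a Trp53 UMI. After UIR the mean was 50.9% and after UUO 54.3%, where UMIs per cell were also higher.

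Cells of the same injured kidneys differed sharply by cluster. These values are sums over the cells of a cluster, clusters were built from the expression of the cells, and no test was made. The loop of Henle had a cluster shared with controls (cluster 41, led by Egf and Slc12a1, 262 control and 62 UIR cells) and 2 clusters of injured kidneys (30 and 32). UIR cells in cluster 41 held 4.14 CPM of Cdkn1a (2 UMIs) beside 11.6 CPM in control cells, while UIR and UUO cells held 112 and 114 CPM in cluster 30 and 302 and 309 CPM in cluster 32. Cluster 32, led by Spp1, Mt2 and Lcn2, thus had close to the same level in both models.

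The same held for principal cells, where 177 UIR cells in the cluster shared with controls (cluster 35, led by Aqp2 and Aqp3) stood at 4.03 CPM beside 2.64 CPM in control cells, and cells of cluster 39, whose leading genes include Pigr and Clu, at 215 CPM in UIR and 213 in UUO. In DT-CDP intermediate cells, cluster 44 (led by S100g and Calb1) held 9.23 CPM in control and 4.59 in UIR cells, and cluster 33 held 82.9 in UIR and 152 in UUO cells. Intercalated clusters 36 and 37 departed from this pattern, since the level was higher within a shared cluster. Another intercalated cluster, 46, led by Slc26a4 (35 control, 53 UIR and 5 UUO cells), is not described here. Cluster 36, led by Kit and Aqp6, held 12.2 CPM in control, 128 in UIR and 148 in UUO cells, and cluster 37 held 10.7, 147 and 116 CPM.

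**Figure D3:**
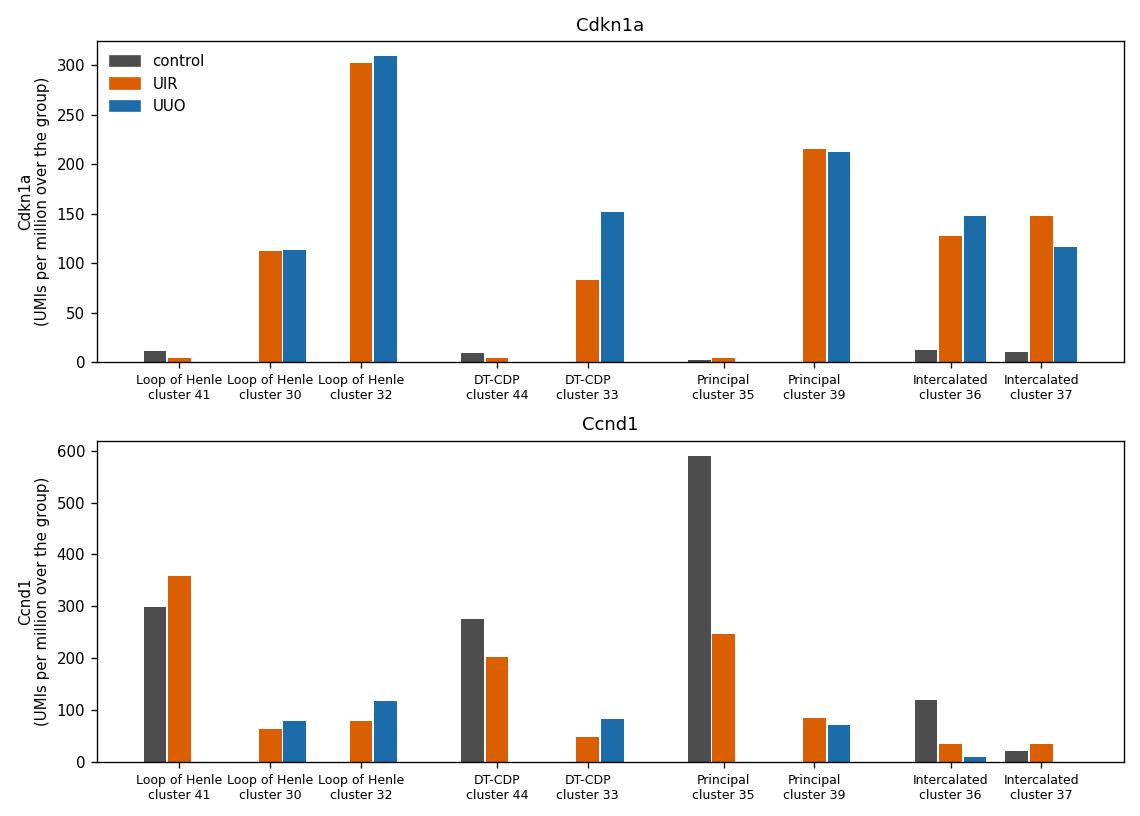
Cdkn1a (top) and Ccnd1 (bottom) in CPM (vertical axes), summed over the cells of a group in clusters of 4 distal classes. Intercalated cluster 46 (35 control, 53 UIR and 5 UUO cells) is not drawn. Bars start at 0, and groups with fewer than 20 cells in a cluster are not drawn. UIR bars in clusters 41, 44 and 35 are short for Cdkn1a and above 200 CPM for Ccnd1, as are the control bars beside them, and both injured groups have tall Cdkn1a bars in clusters 30, 32, 33, 39, 36 and 37.

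Cdkn1b, which encodes p27 and restrains CDK2 in resting cells, changed little. It was called in 0 of 11 classes in UIR (0 also at an unadjusted p under 0.05 and by DESeq2), with log2 fold changes from -0.26 to 0.47, and fell in 2 of 11 in UUO. In principal cells control libraries held 104, 105, 81.5, 97.9 and 109 CPM and UUO libraries 72.2, 66.7 and 69.8, below every control (log2 fold change -0.62, SE 0.14, adjusted p = 0.00161), and with the N libraries as the only controls the call was lost (0.0865). In macrophages control libraries held 131, 128, 118, 67.2 and 146 CPM and UUO libraries 83.8, 73.4 and 78.1. These groups overlapped through AN1, the log2 fold change was -0.68 (SE 0.19, adjusted p = 0.0179), and the call was lost under 5 of 24 other settings, without N1 or AN2, with the N or the AN libraries as the only controls and at a mitochondrial limit of 15%.

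Cdkn2a and Cdkn2b lie side by side on chromosome 4 of GRCm38, on the minus strand at 89274471 to 89294653 and 89306299 to 89311039, with 11645 bases between them. Cdkn2a encodes p16 and, from another first exon, the Mdm2 inhibitor ARF, and counts at the 3′ end cannot separate the transcripts. The 250 bases before the starts are shown because the genes are neighbours that differed in where they were detected. Capitals mark GC boxes (GGGCGG) in Cdkn2a and a cyclic AMP response element (TGACGTCA) in Cdkn2b, both searched on both strands.
Cdkn2a upstream start, chr4:89294620-89294869, minus strand: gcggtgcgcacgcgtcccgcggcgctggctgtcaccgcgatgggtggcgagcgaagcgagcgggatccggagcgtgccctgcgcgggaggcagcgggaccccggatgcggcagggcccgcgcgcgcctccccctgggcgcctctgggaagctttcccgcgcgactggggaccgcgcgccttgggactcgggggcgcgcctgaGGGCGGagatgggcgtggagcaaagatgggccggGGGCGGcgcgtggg
Cdkn2a downstream start, chr4:89282193-89282442, minus strand: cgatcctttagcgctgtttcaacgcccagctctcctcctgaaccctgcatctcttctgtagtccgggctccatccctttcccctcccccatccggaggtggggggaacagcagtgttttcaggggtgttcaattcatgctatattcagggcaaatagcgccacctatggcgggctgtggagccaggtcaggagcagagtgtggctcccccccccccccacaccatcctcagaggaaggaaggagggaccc
Cdkn2b, chr4:89311033-89311282, minus strand: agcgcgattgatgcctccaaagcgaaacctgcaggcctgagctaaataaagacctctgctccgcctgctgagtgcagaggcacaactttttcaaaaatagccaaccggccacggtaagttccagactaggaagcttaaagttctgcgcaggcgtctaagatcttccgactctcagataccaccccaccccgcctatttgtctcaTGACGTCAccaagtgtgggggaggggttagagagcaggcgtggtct
The upstream Cdkn2a window had 78.4% G and C with 2 GC boxes, the downstream window 60% with none, and the Cdkn2b window 53.6%. The cyclic AMP response element was found in 1.55% of promoters of this length. RefSeq promoters, on GRCm38.p6, matched 8 of the 10 genes, and Ccnd1 and Ccnd2 had no entry.

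Cdkn2a was hardly counted in control kidneys. Only 2 UMIs were counted in 10260 control cells, both in T and natural killer cells. UIR had 388 in 16942 cells and UUO 244 in 13371. These totals depend on the cell mix: 5369 control cells were PT, 274 loop of Henle, 74 thin limb-like and 11 Tnc and Cp. With 0 UMIs, the upper 95% Poisson bound for control thin limb-like cells was 5.55 CPM, below the UIR level of 54.9 CPM. For the Tnc and Cp cluster the control bound was 33.7 CPM, above its level in either model, so no difference was shown there. Of the UIR counts, 145 came from thin limb-like cells, where 44 of 215 cells had a UMI, 97 from the Tnc and Cp cluster (51 of 225 cells) and 51 from the loop of Henle. UUO counts were spread differently, with 57 in the loop of Henle, 39 in the Tnc and Cp cluster and 6 in thin limb-like cells, where 4 of 95 cells had a UMI.

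Only in thin limb-like cells could Cdkn2a be tested against control. Both control pools held 0 CPM, the UIR libraries 75.8, 57.1 and 41.2 CPM, and the UUO libraries 2.81 and 3.45 CPM. The UIR rise was called (adjusted p = 0.000209) and was at least 8.80-fold when the controls are set to 3 counts in all, a bound that covers counting error only. The 2 UUO libraries were also below the 3 UIR libraries (log2 difference -4.14, SE 0.57, adjusted p = 0.001). This call was lost without library UUO, which left 1 UUO pool and a log2 difference of -3.98. The Tnc and Cp cluster held similar levels in both models, 29.0 and 31.7 CPM in UIR and 27.9 and 19.9 CPM in UUO (log2 difference -0.42, SE 0.30, adjusted p = 0.885).

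Cdkn2b had a wider spread over the distal nephron. Loop of Henle cells held 0, 0, 2.57, 0 and 13.7 CPM in the control libraries, UIR libraries 47.5, 36.5 and 37.8, and UUO libraries 53.2, 36.3 and 40.3. All injured libraries lay above all controls, with log2 fold changes of 3.45 (SE 0.52, adjusted p = 9.74e-06) and 3.54 (SE 0.52, adjusted p = 4.83e-06). In DT-CDP intermediate cells 2 UMIs in all controls gave a ratio of 13.1 in UIR (95% interval 3.49 to 110, counting error only) and 37.4 in UUO (10.1 to 313), and the UIR call was lost with the N or the AN libraries as the only controls. There UUO, at 31.3, 24.5 and 36.3 CPM, was above UIR, at 14.2, 5.92 and 8.48 CPM (log2 difference 1.51, SE 0.31, adjusted p = 0.0105), a call lost without UIR1 or at a mitochondrial limit of 15%.

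Principal cells already held Cdkn2b in controls, at 9.87, 39.1, 10.2, 19.9 and 31.2 CPM. UIR libraries, at 28, 24.8 and 26.8 CPM, lay inside that range and were not called, and UUO libraries, at 46.0, 39.4 and 34.3 CPM, were higher by 0.82 on the log2 scale (SE 0.29, adjusted p = 0.0309), a call lost without Ctrl, N2, AN1, UUO or UUO1 and under 4 further settings, with the log2 fold change down to 0.18 at a mitochondrial limit of 15% (adjusted p = 0.845). Thin limb-like cells held 27.4 and 61.0 CPM in controls, 146, 109 and 90.3 in UIR and 82.8 and 79.4 in UUO. Only UIR was called there (log2 fold change 1.28, SE 0.35, adjusted p = 0.0244), and the call was lost without library UIR, by DESeq2 (0.0796) and with free RNA subtracted (0.0611). It was also lost without Ctrl, which left 1 control pool and a log2 fold change of 0.85.

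**Figure D4:**
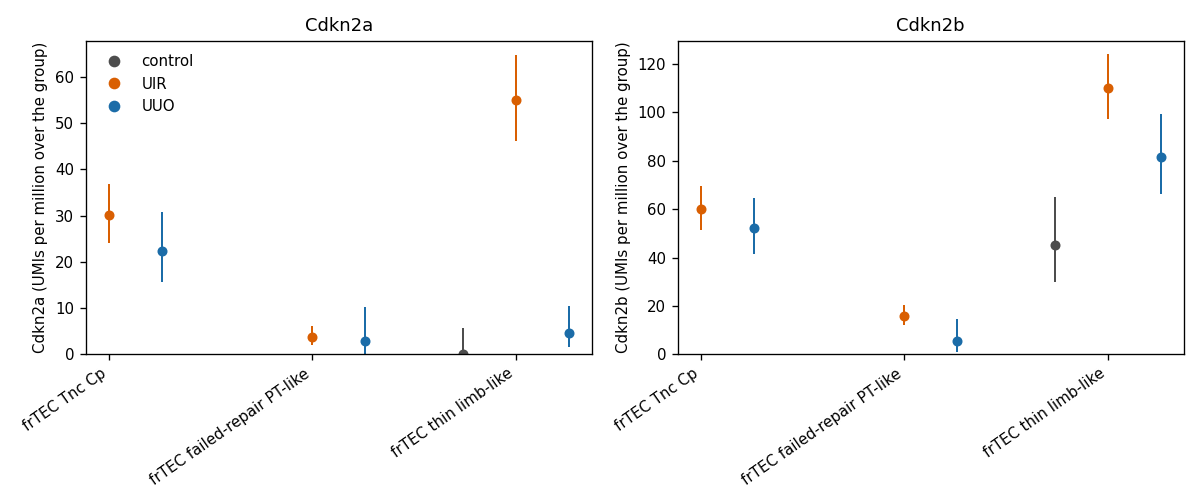
Cdkn2a (left) and Cdkn2b (right) in CPM, summed over the cells of a group in each of the 3 frTEC clusters. Points are the levels, bars exact 95% Poisson intervals that cover counting error only, and groups with fewer than 20 cells are not drawn. For Cdkn2a the UIR point of the thin limb-like cluster stands alone at 54.9, with the UUO point at 4.67 and the control point at 0, while for Cdkn2b all 3 groups have counts in that cluster.

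Ccnd1, which encodes a D cyclin that activates CDK4 and CDK6, fell in the 5 classes where Cdkn1a rose. It was lower in 6 of 11 classes in each model, the 5 distal and thin limb-like classes and macrophages, and higher in 1, podocytes in UIR. In principal cells control libraries held 697, 659, 557, 575 and 462 CPM, UIR libraries 107, 183 and 168, and UUO libraries 86.4, 85.0 and 69.8. The 3 groups did not overlap, with log2 fold changes of -2.03 (SE 0.18, adjusted p = 4.45e-08) and -2.96 (SE 0.19, adjusted p = 1.02e-10). UUO was below UIR by a further 0.93 (log2 difference -0.93, SE 0.20, adjusted p = 0.00972), a call lost without UIR1 or UUO2, with pools of at least 50 cells and at a mitochondrial limit of 15%.

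In the loop of Henle Ccnd1 stood at 211, 371, 391, 203 and 225 CPM in controls, 55.2, 92.0 and 73.5 in UIR and 85.0, 104 and 130 in UUO. In DT-CDP intermediate cells the control range was 199 to 326 CPM, the UIR range 54.5 to 88.2 and the UUO range 50.4 to 155. Neither class overlapped with control, and the log2 fold changes lay between -2.33 and -1.62, with adjusted p of at most 1.97e-06. In intercalated cells controls ranged from 13.2 to 174 CPM and overlapped with UIR at 23.9 to 42.4, and UUO at 2.71 to 11.5 CPM lay below (log2 fold changes -1.66, SE 0.35, and -3.52, SE 0.46, adjusted p = 0.002 and 3.36e-06). DESeq2 did not call the UIR value (adjusted p = 0.0793). Thin limb-like cells fell from 210 and 126 CPM in controls to 37.9, 35.7 and 72.7 in UIR and 25.2 and 13.8 in UUO (adjusted p = 0.000647 and 7.47e-05).

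In PT Ccnd1 stood at 52.0 to 157 CPM in controls and 79.8 to 112 in UIR (log2 fold change 0.07, SE 0.24, adjusted p = 0.914). The 2 UUO pools held 471 and 214 CPM, above all controls (log2 fold change 1.2, SE 0.42, adjusted p = 0.196), which edgeR did not call and DESeq2 did. The UIR change differed between the segments (adjusted p = 4.28e-09) and so did the UUO change (adjusted p = 2.45e-09). By cluster, UIR cells of cluster 41 in the loop of Henle held 358 CPM beside 299 in control cells, and those of cluster 30 held 64.0 CPM. In principal cells the cluster shared with controls was already lower in UIR, at 247 CPM beside 590 in control cells, and cluster 39 held 85.7 CPM in UIR and 71.7 in UUO. In macrophages controls held 215 to 283 CPM, UIR 170 to 198 and UUO 141 to 181 (log2 fold changes -0.49, SE 0.14, and -0.75, SE 0.14, adjusted p = 0.0324 and 0.000578), and the UIR call was lost under 10 of 24 other settings, among them leaving out any of N1, N2, AN1, AN2, UIR or UIR1. The podocyte rise, from 6.97 to 20.6 CPM in controls to 22.9, 54.0 and 39.2 in UIR, was lost without Ctrl or UIR1, by DESeq2 (adjusted p = 0.0634) and with the N or the AN libraries as the only controls (0.665 and 0.151).

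Ccnd2, a D cyclin more typical of blood cells and endothelium, moved the opposite way to Ccnd1 in most distal classes. In principal cells 0 of 2649031 control UMIs were Ccnd2, while UIR libraries held 20.5, 8.53 and 38.9 CPM and UUO libraries 65.9, 46.8 and 49.4. With the controls set to 3 counts in all, the level was at least 20.6-fold higher in UIR (adjusted p = 8.77e-05) and at least 47.6-fold higher in UUO (adjusted p = 6.55e-07). UUO was above UIR (log2 difference 1.22, SE 0.32, adjusted p = 0.0458), a call lost under 13 of 24 other settings, among them leaving out any of N2, AN1, AN2, UIR, UIR1, UUO, UUO1 or UUO2, DESeq2 and free RNA subtracted.

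DT-CDP intermediate cells held 1 Ccnd2 UMI in all controls and 88.6, 55.6 and 190 CPM in UIR and 131, 168 and 48.4 in UUO, with ratios of 280 (95% interval 50.1 to 11076, counting error only) and 322 (57.5 to 12738). Loop of Henle cells had 3 control UMIs, against 20.4, 17.4 and 19.9 CPM in UIR and 13.4, 11.5 and 9.85 in UUO, ratios of 12.3 (4.18 to 59.8) and 7.53 (2.54 to 36.9). Every injured library of both classes was above every control (adjusted p of at most 0.00148). At a mitochondrial limit of 15% both loop of Henle calls were lost (adjusted p = 0.19 in UIR and 0.45 in UUO), and the UUO call was also lost with the N or the AN libraries as the only controls (0.064 and 0.13) and when cells were named singly instead of by cluster, where the log2 fold change was 0.74 (0.28). Intercalated cells, where Ccnd2 was below the filter, held 0 to 4.39 CPM in controls and 5.97 to 16.9 CPM in injured libraries. In loop of Henle cells UUO was below UIR (log2 difference -0.72, SE 0.20, adjusted p = 0.0359), a call lost without UIR, UIR1, UIR2, UUO1 or UUO2 and with 15% of barcodes left out as doublets.

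In PT Ccnd2 was called higher in UIR at a low level, 0 to 0.422 CPM in controls and 3.78, 2.98 and 2.0 in UIR (log2 fold change 3.91, SE 0.69, adjusted p = 0.000657). The UMIs that free RNA could give there came to 89.5, 105 and 199.6% of the Ccnd2 UMIs counted in the 3 UIR pools, so the level cannot be told from free RNA, and with free RNA subtracted Ccnd2 was not among the genes tested. In UUO, 1 of the 2 PT pools held 3 Ccnd2 UMIs (108.6 CPM in 22 cells) and the other 0, which edgeR did not call (adjusted p = 0.177) and DESeq2 did. Thin limb-like cells had 0 UMIs in the 2 control pools (1 UMI in all 74 control cells) and 34.9, 17.8 and 42.1 CPM in UIR, at least 5.22-fold higher than the pools (adjusted p = 0.00387). This call was lost without AN2, which left 1 control pool, and with free RNA subtracted (0.0673). Free RNA could give 20.3, 53.3 and 19.5% of these UIR UMIs. Among immune and endothelial classes, where Ccnd2 was abundant, it fell in macrophages in both models and in endothelium and T and natural killer cells in UUO, while neither was called in UIR, at log2 fold changes of -0.32 (adjusted p = 0.365) and -0.45 (adjusted p = 0.45). Macrophages held 179, 147, 165, 126 and 109 CPM in controls, 48.9, 65.1 and 63.2 in UIR and 50.2, 98.9 and 84.3 in UUO (log2 fold changes -1.26, SE 0.21, and -0.94, SE 0.20, adjusted p = 0.000452 and 0.003), but with the AN libraries as the only controls neither was called (0.133 and 0.29), nor was UUO with the N libraries (0.0835). In UUO endothelium fell from 325 to 496 CPM to 205 to 267 (log2 fold change -0.84, SE 0.15, adjusted p = 0.000667), and T and natural killer cells from 745 to 921 CPM to 366 to 636 (-0.72, SE 0.19, adjusted p = 0.0346), the latter lost under 10 of 21 other settings, among them without Ctrl, N1, AN1, AN2, UUO or UUO2 and with free RNA subtracted.

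**Figure D5:**
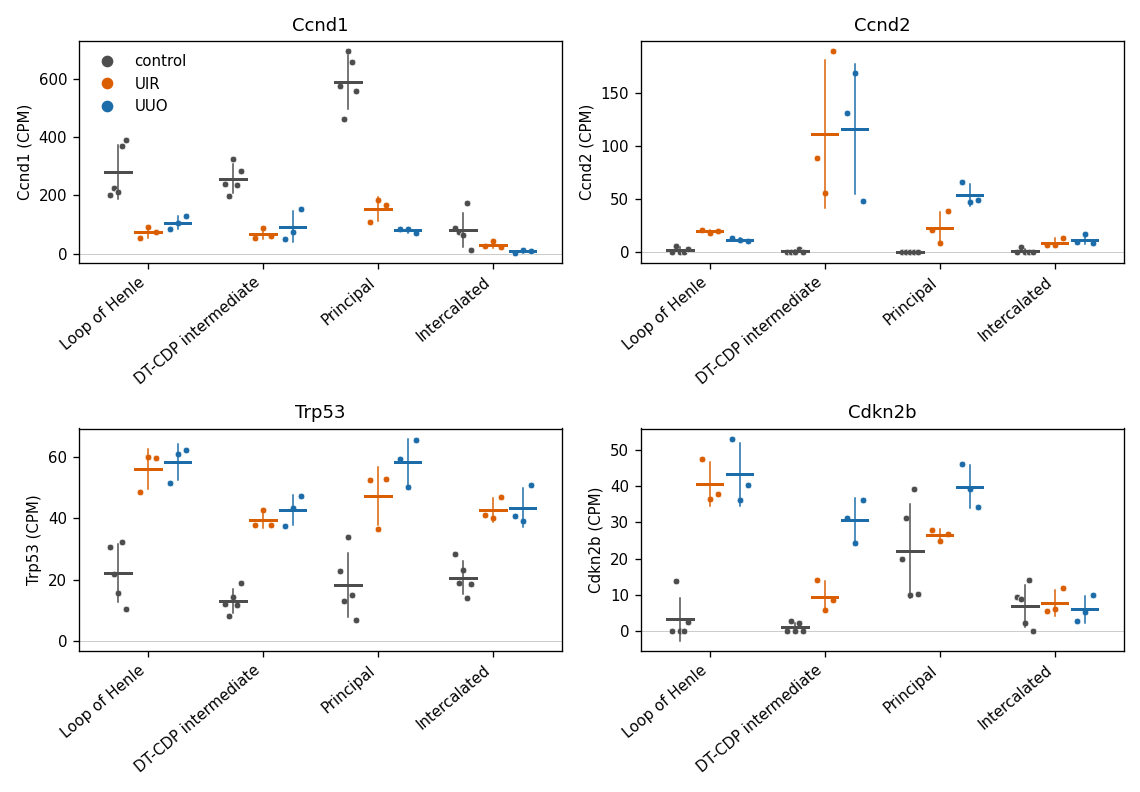
Ccnd1, Ccnd2, Trp53 and Cdkn2b in CPM (vertical axes, linear) in 4 distal classes. Each point is 1 library, horizontal bars are group means and vertical bars SDs. Control points of Ccnd1 lie above all injured points except in intercalated cells, where they overlap with UIR, control points of Ccnd2 lie at or near 0, and all UIR and UUO points of Trp53 lie above the control points of the same class.

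Trp53, which encodes the transcription factor p53, rose in the 4 distal classes in both models. In distal tubule cells, where it was not tested, controls held 2.56 to 18.1 CPM and the 2 UIR pools 7.46 and 26.1. In the loop of Henle control libraries held 15.6, 32.4, 10.3, 30.6 and 22.0 CPM, UIR libraries 48.5, 60.1 and 59.8, and UUO libraries 51.7, 61.2 and 62.4. The injured libraries were above all controls, with log2 fold changes of 1.22 (SE 0.23, adjusted p = 0.000196) and 1.26 (SE 0.23, adjusted p = 0.000108). Over principal, DT-CDP intermediate and intercalated cells the log2 fold changes were 0.79 to 1.40, with adjusted p from 0.000154 to 0.0138. The intercalated calls were lost without N1, with the AN libraries as the only controls, with pools of at least 50 cells and with 15% of barcodes left out as doublets, and that in UUO also without UUO2. At a mitochondrial limit of 15% both principal cell calls were lost (adjusted p = 0.252 and 0.0955), and with the N libraries as the only controls both DT-CDP intermediate calls were lost (0.0753 and 0.0511).

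The change of Trp53 was much smaller than that of Cdkn1a, and it was not seen in thin limb-like cells, where Cdkn1a was highest. These held 45.7 and 57.2 CPM of Trp53 in controls and 48.5, 57.1 and 62.2 in UIR (log2 fold change 0.08, SE 0.31, adjusted p = 0.923). PT stood at 19.2 to 22.9 CPM in controls and 21.0 to 31.2 in UIR (0.33, SE 0.14, adjusted p = 0.155), and the UIR change differed between segments at adjusted p = 0.0494. In macrophages the UUO level was lower (log2 fold change -0.60, SE 0.17, adjusted p = 0.0219), a call lost under 6 of 24 other settings, among them without AN1 or AN2.

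Mdm2, which p53 activates and which marks p53 for degradation, was not called higher in any class. It was called in 1 of 11 classes, the loop of Henle, where it was lower in both models. Control libraries held 46.8, 60.2, 61.7, 38.9 and 54.9 CPM, UIR libraries 36.2, 37.8 and 42.5, and UUO libraries 32.8, 40.3 and 43.0, so that the groups overlapped through AN1 (log2 fold changes -0.64, SE 0.17, and -0.66, SE 0.18, adjusted p = 0.00624 and 0.00451). The call was lost in both models with the AN libraries as the only controls (adjusted p = 0.2 and 0.151) and at a mitochondrial limit of 15% (0.57 and 0.503). In all other classes the log2 fold changes lay between -0.99 and 0.55.

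Of the 20 p53 target genes listed, which leave out Cdkn1a and Mdm2, 19 were tested in the loop of Henle, where 4 rose and 1 fell in UIR and 8 rose and 2 fell in UUO, beside 32.5% and 38.2% of all genes called there, so that the UIR count was below the background. The median log2 fold change was 0.39 in UIR and 0.52 in UUO, beside 0.09 and 0.08 over all genes. In principal cells 4 of 15 rose and 1 fell in UIR, and 6 rose and 3 fell in UUO, beside 18.7% and 32.9% of all genes. Pmaip1, which encodes the death-promoting protein Noxa, rose from a mean of 2.11 CPM in control principal cells to 120 in UIR and 195 in UUO, and from 0 CPM in the loop of Henle to 13.0 and 39.1. Bbc3, which encodes Puma, rose in both classes (log2 fold changes 1.93 and 2.06 in the loop of Henle, 1.52 and 1.8 in principal cells), and Phlda3, an Akt repressor, in principal cells (2.21 and 1.95).

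The direction was not uniform. In DT-CDP intermediate cells Pmaip1, Bbc3 and Perp rose in both models and Ccng1, which encodes cyclin G1, fell (log2 fold changes -0.83 and -0.98), with 3 genes higher and 2 lower of 16 tested in each model, a share near the 24.1% and 31.9% of all genes called. In intercalated cells Pmaip1 and Trp53inp1 rose and Rrm2b fell in UIR (-0.70), and in UUO principal cells Sesn1 fell (-1.91). Thin limb-like cells had 5 of 16 higher and 0 lower in UIR, among them Phlda3 (3.08, SE 0.46, adjusted p = 0.000107), and 0 of 16 called in UUO (3 at an unadjusted p under 0.05, 0 by DESeq2), where 7.44% and 6.08% of all genes were called. In PT 2 of 18 rose in UIR (9.53% of all genes called), Btg2 (1.68) and Perp (0.62), and in macrophages 0 of 17 were called in UIR (2 at an unadjusted p under 0.05, 1 by DESeq2) and Bbc3 fell in UUO (-0.99).

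Another list held 16 cyclin, CDK, CDK inhibitor and pocket protein genes, with the transcription factor genes E2f1, E2f3, E2f4 and Myc among the 16. Of these, Ccnd3 fell with Ccnd1 in the loop of Henle, DT-CDP intermediate and intercalated cells in both models and in principal cells in UIR (log2 fold changes from -1.20 to -0.69). Cdk4 and Cdk6, the kinases that D cyclins activate, rose in the loop of Henle (0.80 and 3.54 in UIR, 1.06 and 4.05 in UUO), and Myc rose there too (3.0 and 3.77). In principal cells Rb1, the pocket protein that CDK4 inactivates, was lower (-0.83 and -1.40). In all, 3 rose and 2 fell of 13 in the UIR loop of Henle and 2 rose and 5 fell of 9 in UUO principal cells, where 32.5% and 32.9% of all genes were called, so that the loop of Henle count was near the background. In macrophages Myc and Cdk6 fell (-2.06 and -1.11 in UIR, -1.40 and -1.15 in UUO).

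Of 16 S and G2/M phase genes only 5 to 7 reached the filter in a distal class. Stmn1, which encodes the microtubule regulator stathmin, rose in all 4 distal classes and in thin limb-like cells in both models (log2 fold changes from 1.26 to 5.0), and Mcm6, a replication helicase subunit, in the loop of Henle and DT-CDP intermediate cells. Rrm2, a ribonucleotide reductase subunit needed for DNA synthesis, fell in the loop of Henle (-1.74 and -1.90) and in principal cells (-2.11 and -3.26). The mitotic genes Mki67 and Top2a did not reach the filter in these classes. Of all genes, 14 to 32.5% were called in the 4 distal classes in UIR and 24.9 to 38.2% in UUO. In UIR PT 0 of 10 were called (5 at an unadjusted p under 0.05, 1 by DESeq2), beside 9.53% of all genes. In UIR endothelium 0 of 7 were called (0 by either), beside 2.1%. In UUO macrophages 0 of 9 were called (1 at an unadjusted p under 0.05, 0 by DESeq2), beside 11.7%.

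Secreted genes often counted as senescence-associated were higher in the loop of Henle, 9 of 13 tested in each model with 2 lower, where 32.5% and 38.2% of all genes were called, and the median log2 fold change was 2.69 in UIR and 3.27 in UUO. This median takes in genes without any UMI in the control pools, whose fitted values depend on the prior count. The neutrophil chemokine Cxcl2 went from 0 CPM in control pools to means of 45.7 and 40.6 CPM, Cxcl1 from 0 to 18.4 and 21.2, and Timp1, a metalloproteinase inhibitor, from 0 to 7.5 and 15.2. Ccl5, which is typical of T and natural killer cells, went from 0 to 26.7 and 30.1 CPM, and the summed markers of those cells were 0 to 2.57 CPM in control loop of Henle pools, 4.33 to 6.51 in UIR and 3.83 to 7.70 in UUO. Intercalated cells had 2 higher and 2 lower of 6 in each model (14% and 24.9% of all genes), with Mmp14, a membrane metalloproteinase, and Tgfb1 up and Igfbp5 and Vegfa down. In PT 7 of 12 rose and 1 fell in UIR, led by Ccl2 (5.46) and Ccl5 (5.33), where 9.53% of all genes were called and Cdkn1a was not. Summed macrophage markers in the PT pools were 6.33 to 9.67 CPM in control and 60.5 to 105 in UIR, and those of T and natural killer cells 0.273 to 0.455 and 8.37 to 15.8 CPM, and their part in these PT values was not tested.

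Gdf15 was called in the same direction as Cdkn1a only in the loop of Henle in UUO. It was called in 0 of 6 classes in UIR (1 at an unadjusted p under 0.05, 0 by DESeq2), and in UUO it rose in the loop of Henle and fell in principal and thin limb-like cells. In the loop of Henle the control libraries held 12.1, 13.9, 0, 5.56 and 5.49 CPM, UIR 10.8, 8.29 and 10.8 and UUO 16.5, 29.5 and 12.8, with a log2 fold change of 1.22 in UUO (SE 0.47, adjusted p = 0.0431). The UUO libraries overlapped with controls, and the call was lost under 10 of 24 other settings, among them without N2, AN1, AN2 or UUO1 and with free RNA subtracted. UUO was also above UIR (log2 difference 1.0, SE 0.24, adjusted p = 0.016), a call lost under 6 of 24, among them DESeq2 and leaving out UIR1 or UUO1.

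Principal cells held Gdf15 at 26.8, 60.2, 98.5, 55.3 and 100 CPM in controls, 49.2, 45 and 47.7 for UIR and 52.4, 25.7 and 39.7 for UUO. Its UUO log2 fold change was -0.84 (SE 0.31, adjusted p = 0.0385), the groups overlapped, and the call was lost under 7 of 24 other settings, among them without N2, AN2, UUO1 or UUO2. Thin limb-like cells held 54.9 and 351 CPM in the 2 controls, 200, 98.7 and 262 for UIR and 46.3 and 10.4 for UUO. The UUO value of -2.63 (SE 0.59, adjusted p = 0.00679) rested on AN2, without which it was -0.71, with 1 control pool left. DESeq2 did not call the value with both control pools (adjusted p = 0.215). Of the other integrated stress response genes, Atf3 rose in loop of Henle cells (log2 fold changes 4.27 and 4.39) and in principal cells (3.19 and 3.47), and in the UUO loop of Henle 2 of 4 tested rose, Atf3 and Asns, near the 38.2% of all genes called there.

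Glb1 was nearly flat. It was called in 0 of 10 classes in UIR (PT alone at an unadjusted p under 0.05, 0 by DESeq2), with log2 fold changes from -0.14 to 0.69, and in 1 of 9 in UUO. That was principal cells, at 19.7, 21.1, 27.2, 22.7 and 24.7 CPM in controls, 28, 34.9 and 32.9 for UIR and 34.7, 34.8 and 40.8 for UUO. The UUO libraries lay above all controls (log2 fold change 0.58, SE 0.21, adjusted p = 0.0354), and the call was lost under 13 of 24 other settings, among them DESeq2 and leaving out Ctrl, N1, AN1, UUO or UUO2. In PT control libraries held 54.0 to 73.1 CPM, and UIR libraries held 69.8, 88.7 and 76.0 CPM (0.31, SE 0.13, adjusted p = 0.143).

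Of the other lysosomal genes, 4 of 11 rose and 1 fell in principal cells in UIR and 7 rose in UUO (18.7% and 32.9% of all genes called), and in the loop of Henle 4 of 12 rose in each model, at or below the background of 32.5% and 38.2%. Ctsl, which encodes the protease cathepsin L, was higher in loop of Henle cells (log2 fold changes 2.12 and 2.89) and principal cells (1.31 and 2.15), and the membrane protein gene Lamp2 rose in all 4 distal classes (0.65 to 1.35). In macrophages 6 of 12 rose in each model (6.48% and 11.7% of all genes), led by Ctsd (3.38 and 3.86), while Glb1 itself was not called there (0.20 and 0.37).

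Several technical values moved with the groups in these classes. Median UMIs per loop of Henle cell were 5238 for controls, 13336 for UIR and 15158 for UUO, and median mitochondrial shares 21.3, 9.64 and 8.12%. Immediate early and heat shock genes, listed as signs of handling, were higher in the loop of Henle (6 of 8 in UIR and 5 of 8 in UUO, where 32.5% and 38.2% of all genes were called), with Jun at a log2 fold change of 1.89 and 1.87 and Junb at 2.92 and 3.16. In principal cells Jun rose (3.65 and 4.37) and Hspa1a fell (-1.11 and -1.66). Summed macrophage markers (C1qa, C1qb, C1qc, Adgre1 and Csf1r) were 0 to 5.49 CPM in control loop of Henle pools, 26.1 to 47.9 in UIR and 42.3 to 51.9 in UUO, and summed PT markers (8 genes) were 156 to 290, 44 to 76 and 10.8 to 19.9 CPM. Macrophage markers moved alike in DT-CDP intermediate cells (0 to 7.97, 24.4 to 61.6 and 33.9 to 56.5 CPM), principal cells (0 to 28.2, 28 to 49.6 and 41.1 to 53.1) and intercalated cells (0 to 11.7, 31.0 to 41.8 and 40.2 to 89.6). The summed markers of the class itself were lower in UIR and lower again in UUO in loop of Henle cells (17951 to 22248, 12885 to 13236 and 6403 to 7847 CPM), principal cells (17343 to 29608, 7873 to 8184 and 3402 to 4098) and DT-CDP intermediate cells (9013 to 14570, 3352 to 4947 and 2138 to 2792). They were lower in both models in intercalated cells (8680 to 11025, 6929 to 8064 and 6841 to 7445) and thin limb-like cells (6068 to 6448, 3254 to 4074 and 2865 to 3452). Thin limb-like cells had median mitochondrial shares of 13.7, 8.53 and 6.07%. Their summed Fibro 1 markers were 0, 4.55 to 34.5 and 26.7 to 38.0 CPM. Median mitochondrial shares were lower in injured DT-CDP intermediate, principal and intercalated cells, at 18.5 to 23.6% in control, 12.6 to 13.7% in UIR and 9.83 to 11.7% in UUO, and median UMIs per cell were higher in principal and intercalated cells and lower in DT-CDP intermediate cells (14384, 11824 and 12529). The part of the handling genes and of all these marker sums in the results was not tested, while the mitochondrial limit of 15% and the free RNA subtracted gave the values stated beside the results above. Within the empty droplets Cdkn1a reached 1.15 to 10.1 CPM for controls, 16.4 to 25.9 for UIR and 40.5 to 64.5 for UUO, and the estimated share of Cdkn1a UMIs that free RNA could give was at most 1.01% in injured loop of Henle pools.

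Over all 166 pools of 22 classes, the genes whose log2 CPM was most like that of Cdkn1a among 9781 compared were Klf4 (Pearson r 0.69), Creb5 (0.68) and Jun (0.68). For Cdkn2b they were Ppl (0.81), Ctxn1 (0.79) and Gprc5a (0.78), for Ccnd2 AU020206 (0.83), Lgals9 (0.83) and Sp100 (0.82), and for Ccnd1 Neurl1b (0.53), Mospd2 (0.51) and Mllt4 (0.48). For Trp53 they were Tagln2 (0.75), B2m (0.74) and Exosc8 (0.73), for Gdf15 Pax8 (0.70), Veph1 (0.69) and Acot1 (0.68), and for Mdm2 Fam104a (0.71), 2310036O22Rik (0.71) and Srsf1 (0.68). Cdkn1b was most like Kansl1 (0.82), Atf7ip (0.77) and Zfp652 (0.75), and Glb1 like Dhrs4 (0.70), Nus1 (0.67) and Nit2 (0.66). These are descriptions over pools that share libraries, and Cdkn2a was too low to be compared.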

How the data were processed

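The 11 libraries (10x Genomics Single Cell 3′ v3) were deposited by the authors as unfiltered matrices of UMI counts per gene and barcode. The submitters' processing notes name Cell Ranger 3.1.0 and mm10, and the study's methods a later Cell Ranger with ambient RNA and doublet removal, which the raw matrices do not carry. Each library is 1 mouse, so p-values measure the spread between mice.

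Barcodes were called against empty droplets and kept with at least 200 genes, under 30% mitochondrial and 5% hemoglobin UMIs, and 7.5% per library, 3290 in all, were left out as predicted doublets. Clusters (scikit-learn 1.9.0, leidenalg 0.10.2) were named by marker lists, and 8 clusters with 5216 cells stayed without a name. Pairs of libraries shared 0 to 17 cell barcodes. UIR1 and UIR2 shared 17, where 6.01 were expected from the cell numbers, and UUO1 and UUO2 shared 2, where 2.95 were expected. Most pairs lay above the expected number and some below, and the cause was not tested. UMIs were summed per class and library (at least 20 cells) and tested with edgeR 4.0.16 (filterByExpr, TMM, quasi-likelihood, Benjamini-Hochberg over all genes of a class, threshold 0.05), 3 groups in 1 model. DESeq2 1.42.0, other size factors, filters, cell limits, control sets and left-out libraries were alternatives. Where control counts were 0, a floor of 3 counts over the controls set the bound. Intervals at 95% and floors cover counting error only. The edgeR steps were tested on simulated data.

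Python 3.11.15, numpy 2.4.6, scipy 1.17.1, pandas 2.3.3, igraph 0.11.9, matplotlib 3.10.9, R 4.3.3 and limma 3.58.1 were used. Promoters are from RefSeq (GRCm38.p6). The 10 genes and the gene lists were chosen with earlier results of these data known. All 10 genes were described, and from each list up to 4 genes with the largest absolute log2 fold change among those called, in classes where 1 of the 10 was also called. The genes of most similar profile were the 3 with the highest correlation of log2(CPM + 1), at a mean of at least 10 CPM.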

Additional observations from a re-analysis of the deposited data

Results flagged for a closer look

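Single control libraries stood apart in 2 of the 30 control groups checked with Dixon's test. Its chance rate of about 1 in 20 holds for normal values and does not apply to counts near 0. Ccnd2 in DT-CDP intermediate cells was 2.33 CPM in N1 (1 UMI) and 0 in the other 4 controls, and Cdkn2b in the loop of Henle was 13.7 CPM in AN2 (5 UMIs) and 0 to 2.57 in the others.

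The change after injury differed between the tubular segments by edgeR's interaction test, with the library as a block. In UIR this held for Ccnd1 (adjusted p = 4.28e-09), Cdkn1a (5.04e-07), Cdkn2b (0.000116), Mdm2 (0.036) and Trp53 (0.0494). In UUO it held for Ccnd1 (adjusted p = 2.45e-09), Cdkn1a (8.16e-07), Cdkn2b (0.00107) and Gdf15 (0.0242). The UUO tests rest on PT pools of 22 and 53 cells.

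Clusters without a cell type name entered no comparison. They were flagged where Cdkn1a in every library of an injured group exceeded 29.1 CPM. This was the highest control pool of PT, loop of Henle, distal tubule, principal, intercalated and DT-CDP intermediate cells. Lying above these pools is thus the rule and no result. Clusters 29 and 31, with medians of 884 and 777 UMIs per cell, were flagged, at levels below the AN2 pool of thin limb-like cells (191 CPM). In cluster 29, led by Gm42418, Mt2 and Krt8, it stood at 96.8 CPM in UIR and 167 CPM in UUO. In cluster 31, led by Gm42418, Lars2 and AY036118, it stood at 175 CPM in UIR.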

How the results depend on the processing

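The 27 UIR, 32 UUO and 7 UUO against UIR calls kept their direction under every alternative that gave a value. The UIR count stayed at 27 and the UUO count at 32 under edgeR's other size factors, and DESeq2 gave 23, 31 and 5. Among the alternatives, the share of all genes called was counted only for the N, AN and 15% mitochondrial settings, given above. The number of pairs tested can also change with the setting. Counts under the other settings thus cannot be set against a background. Counts moved further in a few settings: 18 between the models without the filter on low counts, 20 in UUO with the N libraries as the only controls, 16, 20 and 4 with pools of at least 50 cells, 10 in UIR and 12 in UUO with a mitochondrial limit of 15%, and 11 between the models with the library number as a block. Naming each cell on its own, instead of by cluster, gave 25, 29 and 8 calls, of which 17, 19 and 4 were among those described. Leaving out 1 library gave 26 to 31 calls in UIR, 31 to 37 in UUO and 5 to 10 between the models, and 3 to 5 genes in the interaction test of each model. The class fits without 1 library also took contrasts with 1 pool in a group, where the main tests needed 2, so these counts are not like for like. Of the 27, 32 and 7 calls, 14, 16 and 0 were never lost under the settings that gave a value. For these calls all 24 settings gave a value in loop of Henle, principal, macrophage and endothelial cells. In intercalated cells 23 did, in PT 22, in DT-CDP intermediate cells 21 and in thin limb-like cells 17. For Ccnd2 in PT, free RNA subtracted gave none. A setting without a value is no test of a call. The PT values in UUO rest on 2 pools of 27621 and 369699 UMIs, and the cause of the moves was not tested.

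The library number as a block gave 27 and 32 calls against control. Deviations of same-numbered UIR and UUO libraries correlated at 0.44, 0.0928 and 0.057 in the loop of Henle, and not every library correlated best with its own number. Libraries UIR and UUO, which carry no number, also correlated at 0.242, 0.344 and 0.273 in macrophages, endothelium and principal cells, and at -0.0193 in PT. Outside PT, each correlated negatively with the numbered libraries of the other model. Deviations were taken from group means, so these values are not independent. Whether libraries UIR and UUO share a preparation was not tested.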
